A study of Mus musculus with 11 samples.

Results

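Transcripts of 5 enzymes of cholesterol synthesis, Mvk, Cyp51, Nsdhl, Ebp and Dhcr7, and of Srebf2, the gene of the transcription factor that controls the pathway, were examined in the neocortex of mouse embryos. The 6 genes were chosen from measured values of these same arrays, namely their log ratios of null mutant over wild type, so those ratios are described here without a test. They are 6 of 6041 genes with a probe of a single symbol, each has 1 probe, and each was measured on all 11 arrays. All 6 passed the minimum number of arrays that left 4811 genes for the fit across all probes.

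Each of 11 two-colour arrays set total RNA from the neocortex of 1 null mutant embryo against pooled wild-type RNA, both of C57BL/6 background and embryonic day 18. The null allele is carried in the whole animal, the mutant is described in the record as synaptically silent, and the wild-type RNA is read as 1 common pool, so the spread among wild-type embryos was not measured. The green dye Cy3 marked the mutant RNA on arrays 1, 2, 10 and 6 to 8, and the red dye Cy5 marked it on the remaining 5 arrays, numbered 9, 11 and 3 to 5. For arrays 1 and 6 the labels name day 14 for the wild-type RNA in one field and day 18 in another. The series is concerned, per its title, with gene expression that synaptic activity regulates.

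The values are log ratios as deposited, taken as null over wild type and as base 2; the sources used here state neither. Xist, which is expressed from the inactive X chromosome in females, lay between -7.37 and -4.18 on 6 of the 10 arrays that measured it, and between 0.00 and 0.67 on the other 4, which makes null over wild type the likely direction if the pool held females. The 6 arrays with low Xist were the Cy3 arrays 1, 2, 8 and 10 and the Cy5 arrays 3 and 5. The sign was thus the same in both orientations. Spearman correlations across probes between pairs of arrays lay between -0.08 and 0.70, so no pair ran clearly opposite. The arrays held 4822 to 6316 values each, with means between -0.00405 and 0.00298, and the median log2 ratio of the 5399 tested probes was -0.01. A ratio carries no expression level, so whether neuronal or other markers were present at all cannot be read from these files. In tissue RNA of this kind, fewer cells of a type and less RNA per cell cannot be told apart.

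Cholesterol is built from acetyl-CoA through mevalonate, isoprenoid units, squalene and lanosterol, and the last enzymes trim and rearrange lanosterol to cholesterol. The protein made from Srebf2, SREBP-2, is held in the endoplasmic reticulum when sterols are plentiful. When sterols are scarce it is carried to the Golgi, cut, and sent to the nucleus, where it binds sterol regulatory elements (SRE) before genes of the pathway, with NF-Y at CCAAT boxes and Sp1 at GC boxes as partners. The brain makes its own cholesterol, since lipoproteins of the blood do not cross the blood-brain barrier, and neurons and glia both run the pathway during development.

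The stretches before the gene starts are shown because the 6 genes share a known regulator and yet differed in ratio. RefSeq windows of the 250 bases before each annotated start were found for 6 of 6 genes (build GRCm38.p6), with 3 starts for Dhcr7 and 1 for each of the others. Both strands were searched for the SRE core TCACNCCA, for a looser form of it, TCACNNCA, which contains the first, for CCAAT and for GGGCGG. The looser form was chosen after the windows were read. Of 32851 windows of this length, 3.67% held TCACNCCA, 11.4% TCACNNCA, 33.8% CCAAT and 32.7% GGGCGG. The windows below are 5′ to 3′ on the strand of the gene, with matches to any of these in capitals. Mvk lies at chr5:114444019-114444268 on the plus strand, Cyp51 at chr5:4104698-4104947 on the minus strand, Ebp at chrX:8193513-8193762 on the minus strand, and Srebf2 at chr15:82147019-82147268 on the plus strand. Mvk and Ebp stand for a gene with one of the lowest ratios and one nearer to 0.
Mvk: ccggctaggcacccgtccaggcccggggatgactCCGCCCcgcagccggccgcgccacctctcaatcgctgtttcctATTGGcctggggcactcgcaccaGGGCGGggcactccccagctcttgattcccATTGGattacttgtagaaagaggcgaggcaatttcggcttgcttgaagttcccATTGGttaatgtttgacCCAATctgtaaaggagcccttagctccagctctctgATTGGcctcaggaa
Cyp51: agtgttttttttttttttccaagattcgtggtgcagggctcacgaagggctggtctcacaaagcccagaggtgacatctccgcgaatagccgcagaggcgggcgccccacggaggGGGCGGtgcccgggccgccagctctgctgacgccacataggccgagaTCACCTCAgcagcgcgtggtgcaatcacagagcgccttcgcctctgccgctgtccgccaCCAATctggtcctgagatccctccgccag
Ebp: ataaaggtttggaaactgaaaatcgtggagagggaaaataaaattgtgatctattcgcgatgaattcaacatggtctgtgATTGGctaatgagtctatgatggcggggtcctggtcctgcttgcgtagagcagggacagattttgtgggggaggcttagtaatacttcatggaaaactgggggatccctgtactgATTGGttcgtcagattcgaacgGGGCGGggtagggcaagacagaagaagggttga
Srebf2: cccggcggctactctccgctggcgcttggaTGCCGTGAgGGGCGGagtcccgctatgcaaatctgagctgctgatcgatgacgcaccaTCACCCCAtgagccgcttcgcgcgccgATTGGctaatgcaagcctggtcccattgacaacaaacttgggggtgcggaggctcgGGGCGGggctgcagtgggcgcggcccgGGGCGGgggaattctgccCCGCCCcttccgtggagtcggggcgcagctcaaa

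The Srebf2 window held the only match to TCACNCCA among the 8 windows, TCACCCCA at 162 to 155 bases before the start, and a second match to the looser form on the opposite strand at 220 to 213 bases. The Cyp51 window held TCACCTCA at 88 to 81 bases before the start. For Dhcr7, the second start had TCACTTCA at 130 to 123 bases and the third start TCACATCA at 32 to 25 bases, while the first start had neither form. The windows of Mvk, Nsdhl and Ebp held neither form. CCAAT was matched 5 times in the Mvk window, 2 times in the Nsdhl and Ebp windows and before the third start of Dhcr7, and 1 time in each of the Cyp51 and Srebf2 windows. GGGCGG was matched 4 times before Srebf2, 3 times before the third start of Dhcr7, 2 times before Mvk and 1 time before each of Cyp51, Nsdhl, Ebp and the first Dhcr7 start. Mvk and Ebp, which lie far apart in ratio, both held CCAAT and GGGCGG, more of each before Mvk, and neither SRE form. Whether such matches bear on the ratios was not tested. A match describes letters and is no measured binding site, and the tables used do not tell which Dhcr7 start gives the transcript that the probe reads.

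**Figure D1:**
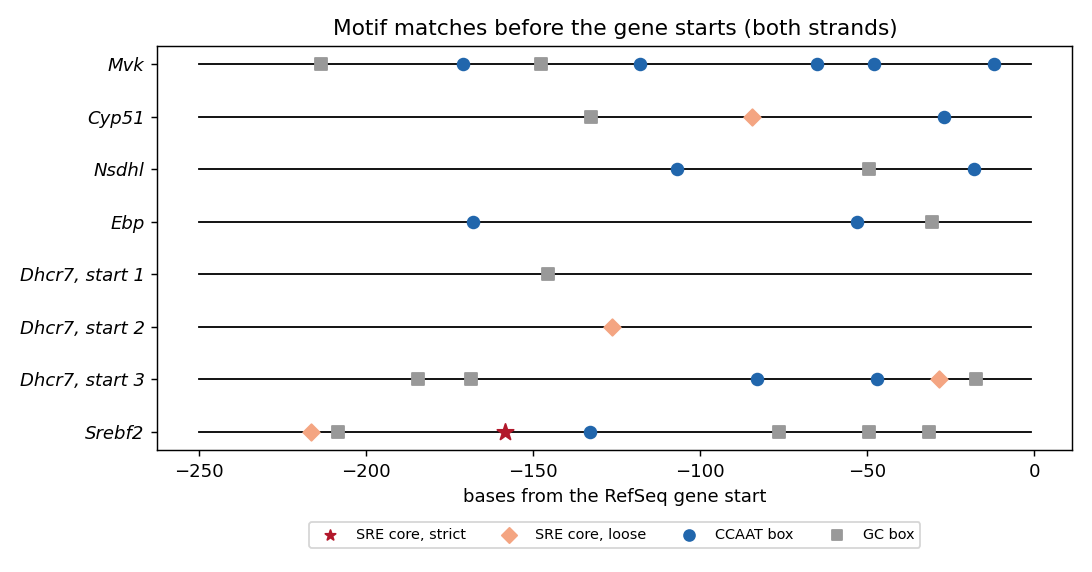
Matches of 4 short motifs in the 250 bases before each RefSeq start of the 6 genes, by distance from the start in bases, 1 line per start. Srebf2 alone carries the star of the strict SRE core, and Mvk, Nsdhl and Ebp carry neither SRE form.

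Along the pathway, Mvk and Nsdhl had ratios close to each other near -0.9, Cyp51 and Dhcr7 near -0.6, and Ebp and Srebf2 nearer to 0. In the order of the enzymes, the mean log2 ratios were -0.87 for Mvk, -0.57 for Cyp51, -0.89 for Nsdhl, -0.13 for Ebp and -0.56 for Dhcr7, with -0.06 for Srebf2. Among these enzymes, the step of Ebp thus had a smaller difference than those before and after it. Sc5d, an enzyme measured between Ebp and Dhcr7, was close to Ebp, at -0.20 against -0.13. Among all 5399 probes ranked from the lowest ratio, Nsdhl stood at 19, Mvk at 22, Cyp51 at 68, Dhcr7 at 72, Ebp at 1070 and Srebf2 at 1838.

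Mevalonate kinase, the product of Mvk, phosphorylates mevalonate at the entry of the isoprenoid pathway. Its log2 ratio was lowest at -1.27 on array 10, had a median of -0.88 and was highest at -0.61 on array 7. All 11 arrays lay below 0, and the lowest and the highest value both came from arrays with the mutant in Cy3. The mean of -0.87 ± 0.06 (SE, n = 11) corresponds to 0.546 of the wild-type level. The SD was 0.26 on the 6 Cy3 arrays and 0.09 on the 5 Cy5 arrays.

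Cyp51 encodes the demethylase that takes a methyl group off lanosterol. The log2 ratio ran from -0.84 on array 10 through a median of -0.58 to -0.30 on array 9. Every array lay below 0, and the Cy3 arrays, from -0.84 to -0.53, were mostly lower than the Cy5 arrays, from -0.58 to -0.30, with a small overlap. The mean was -0.57 ± 0.04 (SE, n = 11), or 0.673 of the wild-type level.

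Nsdhl, an X-linked gene, encodes a sterol dehydrogenase that takes part in removing the methyl groups at carbon C4 of the sterol ring. The log2 ratio was lowest at -1.15 on array 10, had a median of -0.84 and was highest at -0.71 on array 7. All 11 arrays lay below 0, with array 10 apart from the other Cy3 arrays, which lay between -0.84 and -0.71. The mean was -0.89 ± 0.05 (SE, n = 11), or 0.539 of the wild-type level.

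Ebp, also X-linked, encodes the sterol isomerase that moves a double bond within the ring system. The log2 ratio ran from -0.29 on array 7 through a median of -0.20 to 0.24 on array 4. Array 4 was the only array above 0, and it was the highest of the Cy5 arrays, whose other values lay between -0.21 and -0.03. The mean was -0.13 ± 0.05 (SE, n = 11), or 0.913 of the wild-type level, and -0.17 without array 4.

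Dhcr7 encodes the reductase that turns dehydrocholesterol into cholesterol, the enzyme lacking in Smith-Lemli-Opitz syndrome. The log2 ratio ran from -0.78 on array 9 through a median of -0.51 to -0.38 on array 10. All 11 arrays lay below 0, and the lowest values, on arrays 9 and 11, came from Cy5 arrays. The mean was -0.56 ± 0.04 (SE, n = 11), or 0.679 of the wild-type level. Array 10, which had the lowest values of Mvk, Cyp51 and Nsdhl, had the highest value of Dhcr7.

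Srebf2 itself had a log2 ratio that ran from -0.31 on array 4 through a median of -0.04 to 0.15 on array 8. The value lay below 0 on 9 of 11 arrays and above it on the Cy3 arrays 1 and 8. The mean was -0.06 ± 0.04 (SE, n = 11), or 0.957 of the wild-type level. The transcript ratio says nothing of how much SREBP-2 protein was cut or entered the nucleus, which these arrays did not measure.

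**Figure D2:**
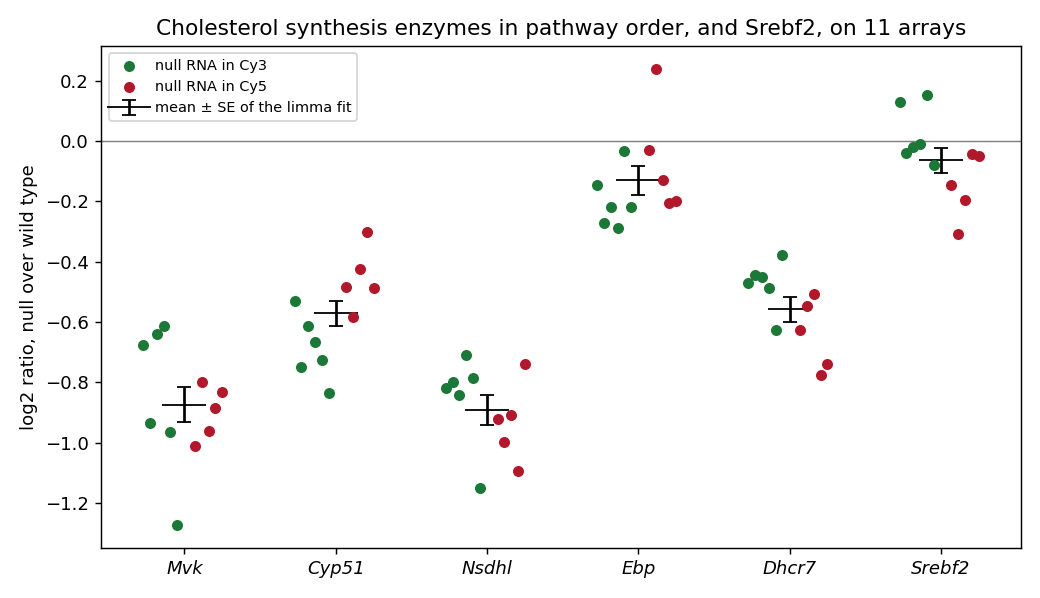
Log2 ratio of null over wild type for the 5 enzymes in pathway order and for Srebf2, 1 point per array in array order, coloured by the dye of the mutant RNA, with the mean and standard error of the limma fit. Mvk, Cyp51, Nsdhl and Dhcr7 lie below 0 on 11 of 11 arrays, Ebp below 0 on 10 of 11 with 0.24 on array 4, and Srebf2 below 0 on 9 of 11.

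The pairs of genes were formed from the mean ratios of these same arrays. The counts by array thus restate those means and are no separate check. Ebp and Srebf2 were the 2 highest genes on 11 of 11 arrays. Mvk and Nsdhl were the 2 lowest on 9 of 11 arrays, and Cyp51 and Dhcr7 filled the middle on 9. The exceptions were array 7, where Cyp51 was lower than Mvk, and array 11, where Dhcr7 was just below Nsdhl. Within each of these pairs the order was not stable from array to array. The mean difference of Mvk minus Nsdhl was 0.02 ± 0.15 (SD, n = 11), with Mvk lower on 6 arrays, and that of Cyp51 minus Dhcr7 was -0.03 ± 0.26, with Cyp51 lower on 7. Ebp minus Srebf2 was -0.08 ± 0.24, with Ebp the higher on 3 arrays only, all of them Cy5 arrays. Between the pairs, Nsdhl minus Dhcr7 was -0.34 ± 0.19, with Nsdhl lower on 10 of 11 arrays, and Ebp minus Dhcr7 was 0.41 ± 0.21, with Ebp higher on 11 of 11. These differences are ratios of ratios between probes and do not compare expression levels of the genes.

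The dye orientation was not used to choose the genes, so its effect was tested. In limma's fit with a dye term, added for the mutant in Cy5 and subtracted for Cy3, 0 of the 6 genes were called at an adjusted p of 0.05, against 4 of 5399 probes (0.0741%). An unadjusted p under 0.05 was far more frequent, and more frequent than with no difference between the orientations. Small differences between the orientations were thus common, and 0 genes called does not show that they are absent. Such a p was found by limma for 1207 of the 5399 probes and 1 of the 6 genes. That gene was Cyp51, whose mean ± SD was -0.69 ± 0.11 on the 6 Cy3 arrays and -0.46 ± 0.10 on the 5 Cy5 arrays. Its limma dye term was 0.12 ± 0.04 (SE, p = 0.016, adjusted p = 0.14). Dhcr7 differed the other way, at -0.48 ± 0.08 in Cy3 and -0.64 ± 0.12 in Cy5 (dye term -0.08 ± 0.04, limma adjusted p = 0.259). Srebf2 was at 0.02 ± 0.10 in Cy3 and -0.15 ± 0.11 in Cy5 (dye term -0.09 ± 0.04, limma adjusted p = 0.243). For Ebp the means were -0.20 ± 0.10 and -0.07 ± 0.18, for Mvk -0.85 ± 0.26 and -0.90 ± 0.09, and for Nsdhl -0.85 ± 0.15 and -0.93 ± 0.13, with limma adjusted p-values of 0.435, 0.839 and 0.64. The means of Mvk, Cyp51, Nsdhl and Dhcr7 were thus below 0 in both orientations, whereas the Srebf2 mean lay above 0 in Cy3 and below 0 in Cy5, a difference that did not pass.

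Whether the genes vary together from array to array, each with 1 embryo, was tested over the 15 pairs on 11 arrays, with 100000 permutations of the arrays. By Pearson's r and by Spearman's rho, 0 of 15 pairs passed an adjusted p of 0.05, and 5 had a positive r. Mvk and Nsdhl, the pair with the lowest ratios, had r = 0.61 (permutation p = 0.045, adjusted 0.34) and rho = 0.45 (p = 0.17, adjusted 0.5), and r was 0.12 without arrays 7 and 10. Cyp51 and Dhcr7 had r = -0.69 (permutation p = 0.019, adjusted 0.29) and rho = -0.73 (p = 0.014, adjusted 0.21). That r was weaker without arrays 9 and 10, at -0.33, and once the mean of each dye orientation had been removed, at -0.36. The parts of single arrays and of the dye in it were not tested.

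Dhcr7 and Srebf2 had r = -0.01 over all arrays (permutation p = 0.98, adjusted 0.98) and rho = 0.17 (p = 0.62, adjusted 0.77), with r = 0.03 without arrays 9 and 11. Within dye orientations they ran opposite to each other. After removal of the mean of each orientation r was -0.84 (p = 0.0018 from permutations within orientations, adjusted 0.026) and rho was -0.86 (p = 0.0017, adjusted 0.026), and r was -0.74 without arrays 8 and 9. This was the only one of the 15 pairs to pass in that way. The comparison set beforehand was the one over all arrays without removal of means, where no pair passed. Each version was adjusted over its own 15 pairs, so the adjusted 0.026 does not cover the choice among versions. On the 6 Cy3 arrays alone r of Dhcr7 and Srebf2 was -0.81 (exact permutation p = 0.0097, adjusted 0.15).

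**Figure D3:**
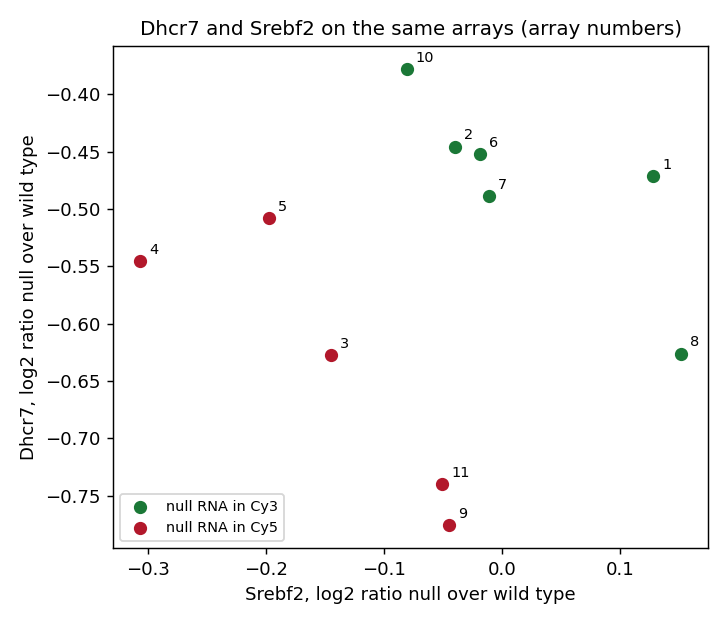
Log2 ratio of Dhcr7 against that of Srebf2 on the same 11 arrays, numbered and coloured by the dye of the mutant RNA. Within each colour Dhcr7 tends to be lower where Srebf2 is higher, and the colours are offset from each other, so that the pooled r is -0.01.

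Of 21 gene names listed for the other enzymes of the pathway, the scaffold gene Erg28 among them, 5 were on the array, and 5 of 5 fell, by limma at an adjusted p of 0.05, with a median log2 ratio of -0.45. Of all 5399 probes, 754 (14.0%) were called lower and 791 (14.7%) higher. Several of these genes were already known to be low in these arrays when the lists were drawn up, so the count is no independent support. Squalene synthase Fdft1 makes squalene, and its log2 ratio lay between -1.10 on array 9 and -0.24 on array 10, with a median of -0.55 and all 11 arrays below 0. It fell by 0.61 ± 0.07 (SE, n = 11, limma adjusted p = 1.69e-05). Squalene epoxidase Sqle, which prepares squalene for ring closure, lay between -1.14 on array 9 and -0.36 on array 10, with a median of -0.77. It fell by 0.79 ± 0.07 (SE, n = 11, limma adjusted p = 2.25e-06).

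Hsd17b7 and Erg28 act with Nsdhl in the removal of the C4 methyl groups, as a reductase and as a scaffold of the complex. Hsd17b7 had values on 9 arrays between -0.97 and 0.22, below 0 on 8, and fell by 0.45 ± 0.08 (limma adjusted p = 0.00231). Erg28 lay between -0.62 and 0.01, below 0 on 10 of 11 arrays, and fell by 0.31 ± 0.05 (limma adjusted p = 0.000444). On the Cy3 arrays alone neither passed, with Hsd17b7 at -0.27 over 5 arrays (limma adjusted p = 0.121) and Erg28 at -0.15 over 6 (limma adjusted p = 0.117). Sc5d, the desaturase that acts between Ebp and Dhcr7, lay between -0.35 and 0.00 and fell by 0.20 ± 0.04 (SE, n = 11, limma adjusted p = 0.00478). Sc5d did not pass on the 5 Cy5 arrays alone, at -0.20 (adjusted p = 0.137). Along the 10 measured genes of the pathway, Ebp and Sc5d, which follow each other, had the ratios nearest to 0, and Dhcr7, the next enzyme, was lower than both.

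**Figure D4:**
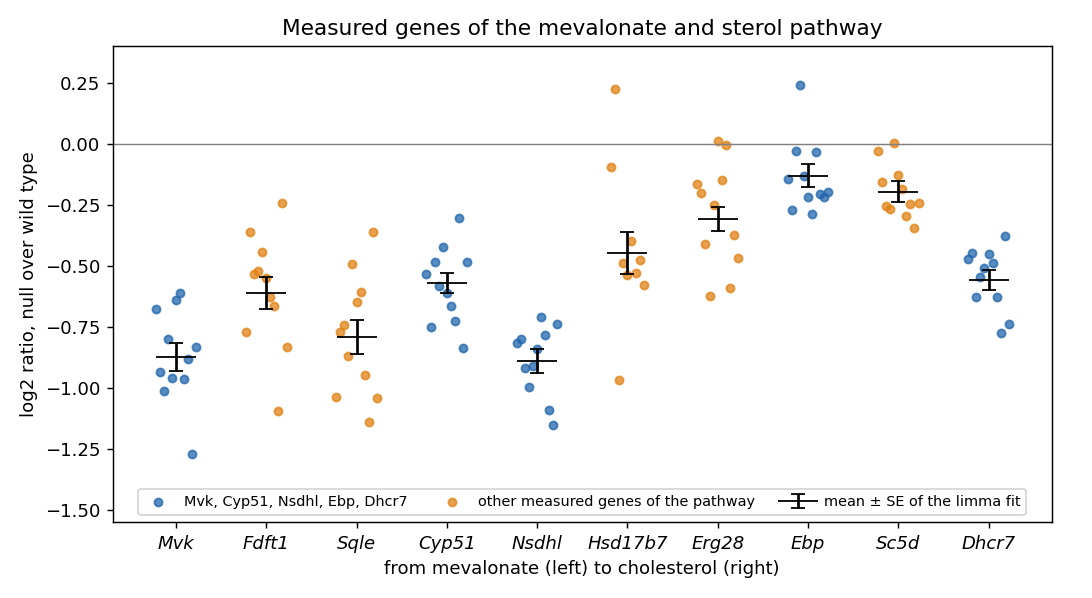
Log2 ratio of null over wild type for the 10 measured genes of the pathway from mevalonate to cholesterol, 1 point per array, with the mean and standard error of the limma fit. Blue marks Mvk, Cyp51, Nsdhl, Ebp and Dhcr7 and orange the other 5 genes, of which Sqle is lowest at -0.79 and Sc5d nearest to 0 at -0.20.

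Of 19 gene names listed for sterol sensing and SREBP control, only 7 were on the array, so most of the list was not measured. Of these 7, all tested, 2 rose and 0 fell, beside 14.7% and 14.0% of all probes, with a median of 0.12. By limma, 0 were lower at an unadjusted p under 0.05 as well. Srebf1, the sister gene of Srebf2 that favours fatty acid synthesis and is induced by the sterol receptor LXR, rose by 0.34 ± 0.09 (SE, n = 8, limma adjusted p = 0.0142) and was above 0 on 7 of 8 arrays. Nfya, a subunit of the CCAAT-binding factor NF-Y, rose by 0.18 ± 0.06 (n = 11, limma adjusted p = 0.0475). The call of Nfya was lost when any 1 of arrays 1, 2, 5, 6, 7, 8, 9 and 11 was left out, with values between 0.13 and 0.19. On the Cy5 arrays alone neither passed, with a log2 ratio of Srebf1 of 0.23 (limma adjusted p = 0.219) and a log2 ratio of Nfya of 0.09 (limma adjusted p = 0.631). The other subunits Nfyb (-0.01) and Nfyc (-0.10), the GC-box factor Sp1 (0.04), the LXR gene Nr1h3 (0.20) and the protease gene Mbtps1 (0.12), whose product makes the first cut in SREBP, did not pass. Without array 4 the log2 ratio of Mbtps1 was 0.19 (limma adjusted p = 0.00435).

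Genes of cholesterol efflux included the highest ratios of the 7 related lists. Of 11 gene names listed, 9 were on the array. Of 7 tested, 4 rose and 2 fell, beside 14.7% and 14.0% of all probes, with a median of 0.19. Earlier results of these arrays were known when the lists were drawn up, so the counts are descriptions and no independent support. Apoe, the main lipid carrier of the brain, lay between 0.38 and 1.52 and rose by 0.95 ± 0.07 (SE, n = 11, limma adjusted p = 3.87e-07). The exporter Abca1 lay between 0.44 and 1.31 and rose by 0.89 ± 0.08 (n = 10, limma adjusted p = 9.46e-06). The exporter Abcg1 rose by 0.39 ± 0.04 and the lipase Lpl by 0.19 ± 0.05, each above 0 on 11 of 11 arrays. The phospholipid transfer protein Pltp fell by 0.22 ± 0.04 on 11 of 11 arrays, and the transporter Abca2 by 0.22 ± 0.06. Abca2 was at 0.00 on the 6 Cy3 arrays alone. Pltp did not pass on the Cy5 arrays alone, at -0.18, and Lpl passed on neither orientation alone, at 0.17 in Cy3 and 0.21 in Cy5. The lipocalin Apod was at 0.08 and passed without array 4, at 0.13 (limma adjusted p = 0.0492). Apoe and Abca1 were above 0 on every array that measured them, and Mvk, Cyp51, Nsdhl and Dhcr7 below 0 on each of these arrays.

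Of 22 gene names listed for uptake and transport, 10 were on the array and 9 were tested. Of these 9, 1 fell and 2 rose, close to the shares of all probes (14.0% lower, 14.7% higher), with a median of 0.00. The lipoprotein receptor Scarb1 lay between -1.04 and -0.09 and fell by 0.48 ± 0.08 (SE, n = 11, limma adjusted p = 0.000631). Npc2, which hands cholesterol out of lysosomes, rose by 0.27 ± 0.05 (n = 11, limma adjusted p = 0.0022). The lysosomal lipase Lipa rose by 0.22 ± 0.07 (n = 8, limma adjusted p = 0.0255), a call that was lost without array 1, 9 or 11, at 0.18, 0.22 and 0.19. On the Cy5 arrays alone neither passed, with a log2 ratio of Npc2 of 0.21 (limma adjusted p = 0.161) and a log2 ratio of Lipa of 0.13 (limma adjusted p = 0.417). Lrpap1, the chaperone of lipoprotein receptors, was at -0.14 and passed when array 5 or array 6 was left out, at -0.18 and -0.17. The log2 ratio of Osbpl5, an oxysterol-binding protein, was 0.15 and passed without arrays 3, 4 and 10, at 0.31 (limma adjusted p = 0.000957).

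Of 21 gene names listed for fatty acid synthesis under SREBP control, genes of fatty acid binding and activation among them, 13 were on the array. Of the 11 tested, 7 fell and 3 rose, beside 14.0% and 14.7% of all probes, with a median of -0.17. This list too was drawn up with earlier results of these arrays known, so the counts are descriptions. Acsl4, a ligase of long-chain fatty acids, fell by 0.66 ± 0.07 (limma adjusted p = 1.56e-05), and the desaturases Fads2, Scd1 and Scd2 by 0.48 ± 0.12, 0.37 ± 0.11 and 0.31 ± 0.05. Fads2 was below 0 on 6 of 10 arrays, Scd1 on 9 of 11 and Scd2 on 11 of 11. The log2 ratio of Fads2 had a median of -0.20. It was -0.12 on the Cy3 arrays alone (limma adjusted p = 0.57) and -0.84 on the Cy5 arrays alone. The dye term of Fads2, at -0.36, did not pass (limma adjusted p = 0.129). Fabp3 fell by 0.35 ± 0.09, Acss2 by 0.17 ± 0.04 and Me1 by 0.14 ± 0.04. The acetyl-CoA carboxylases went the other way, with Acaca up by 0.60 ± 0.09 (n = 9, limma adjusted p = 0.000498) and Acacb by 0.37 ± 0.06 (n = 9, limma adjusted p = 0.000792). The log2 ratio of Acaca was 0.83 on the Cy3 arrays alone and 0.38 on the Cy5 arrays alone, where it did not pass (limma adjusted p = 0.0644). A second probe of Acacb, with too few values to be tested, had a median of 0.14 over 7 arrays, 2 of them below 0. Fasn, the gene of fatty acid synthase, also had too few values, with a median of 0.02 over 5 arrays. Its values lay between -0.23 and 1.45, with 2 below 0. The elongase Elovl1 was up by 0.18 ± 0.06, with a limma adjusted p of 0.0488. Elovl1 did not pass when array 1, 3, 5, 6, 7, 8, 9, 10 or 11 was left out, Me1 when array 1, 2, 5, 6, 7 or 11 was, and Scd1 when array 5 or 7 was. With the arrays of 1 orientation, Scd1 did not pass on the Cy3 arrays, Acsl4, Scd2 and Acss2 did not pass on the Cy5 arrays, and Fabp3, Me1 and Elovl1 passed on neither.

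Genes listed for the isoprenoid branch, which leaves the pathway before squalene, did not pass in either direction. Of 16 listed names 6 were on the array. Of 6 tested, 0 passed by limma and 0 had an unadjusted p under 0.05, with a median of 0.02 and values between -0.08 for Rce1 and 0.09 for Ggps1. Of 4 tested genes of sterol hydroxylation, 1 fell and 1 rose, beside 14.0% and 14.7% of all probes, with a median of 0.05. Cyp46a1, the neuronal hydroxylase through which the brain disposes of cholesterol, fell by 0.25 ± 0.04 (SE, n = 11, limma adjusted p = 0.00035). Hsd3b7, a dehydrogenase of bile acid synthesis, rose by 0.37 ± 0.06 (n = 10, limma adjusted p = 0.000521).

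**Figure D5:**
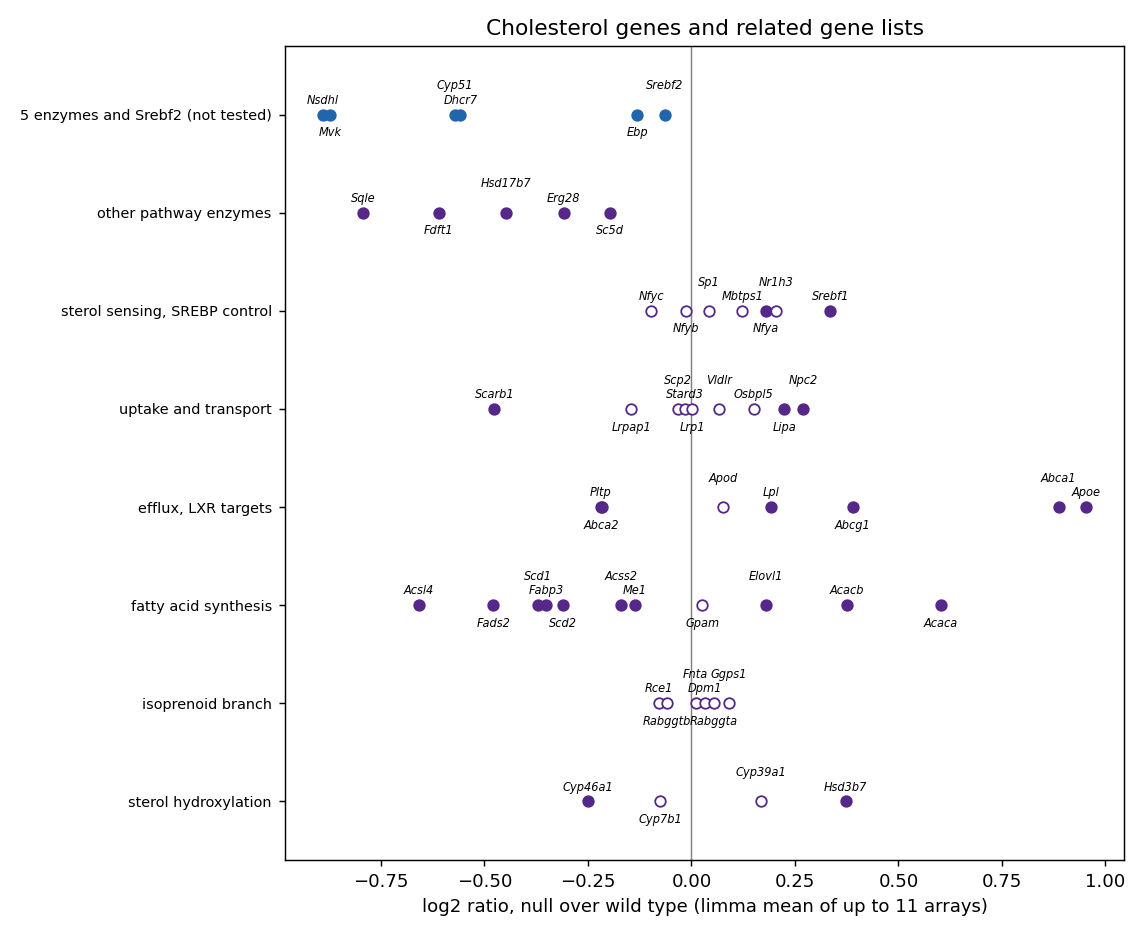
Mean log2 ratio of null over wild type for the 6 genes (blue, described without a test) and for the genes of 7 related lists (filled, adjusted p under 0.05 by limma; open, not passed). The synthesis enzymes lie to the left of 0, with Apoe and Abca1 far to the right at 0.95 and 0.89.

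Markers of cell types were measured in the same comparison, and their part in these results was not tested. Their counts stand beside 14.0% of all probes called lower and 14.7% called higher. Of 11 microglial probes 8 were called higher and 2 lower, with a median of 0.63, array medians between 0.34 and 0.77, and values from -0.21 for Ptprc to 1.04 for Cd68. Of 12 neuronal probes 4 were called lower and 1 higher, with a median of -0.08, array medians between -0.37 and 0.07, and values from -0.50 for Gap43 to 0.26 for Nefm. Of 11 astrocyte probes 3 were called higher and 3 lower, with a median of 0.11, array medians between -0.17 and 0.30, and values from -0.31 for Slc1a3 to 1.48 for Gfap. Gfap, the filament gene of astrocytes, lay between 0.70 and 2.17 on all 11 arrays and rose by 1.48 ± 0.11 (SE, limma adjusted p = 3.87e-07). Of 11 progenitor probes 3 were higher and 1 lower (median 0.07, array medians -0.12 to 0.28), and of 11 of the oligodendrocyte lineage 3 were higher and 2 lower (median -0.02, array medians -0.29 to 0.12). Of 8 probes of meninges and choroid plexus 4 were higher and 1 lower (median 0.24, array medians -0.08 to 0.39), and of 10 of vessels 3 were higher and 1 lower (median 0.09, array medians -0.07 to 0.17).

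Among 3809 probes of other genes with values on all 11 arrays, those most alike to each gene were sought by Pearson's r after removal of the mean of each dye orientation. They were Polr2a (0.95) and Gtf2ird1 (0.90) for Mvk, Dyrk1a (0.93) and Apln (0.93) for Cyp51, Hpca (0.84) and Itm2c (0.82) for Nsdhl, Rad9a (0.95) and Zfp318 (0.90) for Ebp, C730007P19Rik (0.91) and Sap30 (0.91) for Dhcr7, and Fgf1 (0.94) and Plxnc1 (0.93) for Srebf2. These are the highest of 3809 correlations per gene over 11 arrays and are given as a description only. None of them is another enzyme of the pathway, and no 2 of the 6 genes shared one. So few of the 3809 probes were taken per gene that this says nothing of whether the enzymes vary together. Because the mean of each orientation was removed, this likeness is blind to the mean ratio. For example, Polr2a was at 0.58 against -0.87 for Mvk, and Fgf1 at -0.61 against -0.06 for Srebf2.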

How the data were processed

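The data are 11 two-colour arrays of neocortex RNA, each with 1 null mutant embryo and wild-type RNA, grouped from the labels. The values are log2 ratios as the authors deposited them, 1 per probe and array, taken as base 2 and as null over wild type. Their base, direction, background correction and normalization were not given in the sources used here, and scanner intensities were not used here, so dim probes could not be removed and signal over background is unknown. Ratios centred in this way cannot show a change shared by all transcripts. The mutated gene is not reported here.

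Of 6856 probes, 6269 had 1 symbol in the platform's annotation, 6 several and 581 none. Through Entrez identifiers 6250 symbols were updated to RefSeq (GRCm38.p6). Probes with values on at least 8 arrays, at least 3 per dye orientation, were fitted with limma 3.58.1 in R 4.3.3. The model held a mean ratio and a dye term, tests were two-sided, and p-values were adjusted over all 5399 probes by Benjamini-Hochberg at 0.05. The p-values measure the spread between arrays against 1 pool. Each embryo was on 1 array only, so variation of embryos and of arrays cannot be told apart. Where arrays were left out, the same probes were kept if at least 4 arrays, 2 per orientation, remained. Correlations used Python 3.11.15 and scipy 1.17.1 with 100000 permutations, and exact enumeration on 6 arrays.

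The 6 genes and all gene lists were chosen with earlier results of these data known, so counts over them are descriptions. Named are the 6 genes, every measured gene of the list of other enzymes, the genes of the other lists past the threshold, and the 2 probes most alike to each of the 6. Other named genes were chosen after their values were seen. Alternatives changed the dye term, arrays, centring, scaling, weights, direction, moderation, probes and threshold. Leaving out arrays 3, 4 and 10, which correlate mostly with each other, leaving out array 4, which has the widest spread of ratios, and correlating the 6 genes with other enzymes were added after seeing the data. The fit was tested on simulated data before use.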

Additional observations from a re-analysis of the deposited data

Results flagged for a closer look

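In 109 groups of 4 to 6 arrays of 1 gene and 1 dye orientation, 6 had a value far from all others by Dixon's criterion, and chance alone gives about 1 group in 20, close to the share found. Array 10, with the mutant in Cy3, gave 4 of them. Nsdhl was at -1.15 there, the lowest of the Cy3 arrays. Scarb1 was at -0.92 and Fads2 at -0.99 on the same array, also lower than on the other Cy3 arrays, whereas Scd2, at -0.068, was higher. On array 5, with the mutant in Cy5, Sc5d was at 0.0036 and the highest of its orientation. On array 4, Abca2 was at -0.84, below the other Cy5 arrays. Among the 6 genes described, array 10 also had the lowest Mvk and Cyp51 and the highest Dhcr7 of the Cy3 arrays.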

How the results depend on the processing

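The log2 ratios of the 6 genes kept their sign under every alternative that left the direction as deposited, except that of Srebf2 with the mutant in Cy3, at 0.02. With the signs of the Cy5 arrays turned, the means came to 0.0237 for Mvk, -0.12 for Cyp51, 0.0404 for Nsdhl, a log2 ratio of Dhcr7 of 0.0813, and 0.0853 for Srebf2. The result thus depends on both orientations having been deposited in 1 direction. Xist lay far below 0 on arrays of both orientations and far above 0 on none. Leaving out 1 array gave -0.90 to -0.83 for Mvk, -0.59 to -0.56 for Cyp51, -0.92 to -0.86 for Nsdhl, -0.17 to -0.11 for Ebp, -0.57 to -0.54 for Dhcr7 and -0.08 to -0.04 for Srebf2. Of the other pathway genes, 5 were lower and 3 on the Cy3 arrays alone. Genes of SREBP control called higher numbered 2; they were 1 without the dye term, without arrays 1 and 6, with probes on all 11 arrays or with probes on at least 4, and 0 on the Cy5 arrays or at an adjusted p of 0.01, with 1 to 3 when 1 array was left out. For uptake, 1 was lower, and 1 to 2 when 1 array was left out. Of the 2 higher, 0 were left on the Cy5 arrays and 1 without arrays 1 and 6, with probes on all 11 arrays or at 0.01, and 1 to 2 when 1 array was left out. Of 2 efflux genes lower, 1 was left without the dye term, on the Cy3 arrays, on the Cy5 arrays or at 0.01. Of 7 genes of fatty acid synthesis lower, 3 were left on the Cy3 arrays and 2 on the Cy5 arrays or at 0.01; of 3 higher, 1 on the Cy5 arrays or with probes on all 11. In the isoprenoid branch 1 gene was higher on the Cy3 arrays, against 0, and in sterol hydroxylation 0 with probes on all 11 arrays, against 1. Abca2 turned to 0.0004 on the Cy3 arrays. Of the 15 pairs 1 passed with the orientation means removed, against 0. Fits on 1 orientation hold fewer arrays and the probes on all 11 are fewer; the cause of the other changes was not tested. No paired analysis was possible because the null embryos form a single group. Scanner signal was not used here, so depth cannot be weighed.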

Other observations

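The 6 genes were also compared with the 5 other measured genes of the pathway across arrays, a choice made after seeing the data. Of 30 pairs, 0 passed an adjusted p of 0.05 by r and 0 by rho, and with the mean of each dye orientation removed the lowest adjusted p of r was 0.1. Dhcr7 and Fdft1 had r = 0.80 over 11 arrays (permutation p = 0.0029, adjusted 0.086) and rho = 0.67 (p = 0.028, adjusted 0.36). The r was 0.49 without arrays 9 and 11 and 0.82 with the mean of each dye orientation removed. On the 6 Cy3 arrays alone it was 0.65 (exact permutation p = 0.16). Dhcr7 and Sqle had r = 0.73 (permutation p = 0.01, adjusted 0.16) and rho = 0.65 (p = 0.036, adjusted 0.36), with r = 0.51 without arrays 9 and 11. Cyp51 and Fdft1 ran the other way, with r = -0.70 (permutation p = 0.017, adjusted 0.17) and rho = -0.49 (p = 0.13, adjusted 0.4), and r = -0.21 without arrays 9 and 10. Srebf2 and Erg28 had r = 0.66 (permutation p = 0.026, adjusted 0.19) and rho = 0.76 (p = 0.0083, adjusted 0.25), the smallest rho p of the 30, with r = 0.33 without arrays 4 and 8 and 0.29 with the orientation means removed. Srebf2 and Fdft1 had r = -0.34 (permutation p = 0.31, adjusted 0.51) and rho = -0.47 (p = 0.15, adjusted 0.4), with r = -0.37 without arrays 4 and 8. With the orientation means removed that r was -0.81 (p = 0.0068 from permutations within orientations, adjusted 0.1). On array 9 Sqle and Fdft1 had their lowest log2 ratios, at -1.14 and -1.10, as did Dhcr7 at -0.78, while Cyp51 had its highest, at -0.30. On array 10 it was the reverse, with Sqle at -0.36 and Fdft1 at -0.24 as the highest and Cyp51 at -0.84 as the lowest.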
